A study of Mus musculus with 16 samples.

Results

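Chromatin accessibility was described near 41 mouse genes that encode the ephrin, semaphorin, Slit and netrin guidance cues or their receptors. They comprise 10 Eph receptors, 8 ephrins, 8 semaphorins, 7 plexins and neuropilins, 5 Slits and Robos, and 3 genes of the netrin system (Ntn1, Dcc and Unc5c). In each of 16 ATAC-seq libraries the 50000 distinct intervals with the highest −log10 p were kept, and kept summits, each extended by 150 bp on both sides, were merged into 80565 regions that held a summit of at least 2 libraries. A region was given to a guidance gene when its median summit lay within 100 kb of a transcription start site (TSS) and its nearest protein-coding TSS belonged to that gene. This rule found 325 guidance regions, with all 41 genes represented, out of 17457 genes that had any region. The nearest TSS does not show which gene a region acts on, and it can be an internal start of a gene.

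ATAC-seq maps DNA that a transposase can cut, which marks open chromatin. The libraries came from mouse embryonic stem cell (ESC) lines on their way to anterior neural progenitors, grown in serum-free medium with bFGF, and they form 8 groups of 2, each library from its own cell line (n = 2 lines per group). All groups share the B6129S6F1 Tet1 tm1Koh ESC background, and Tet1 encodes an enzyme that oxidises methylated cytosine. On day 2 and day 3 there were untreated WT cells (lines WT70 and WT72), Tet1 KO cells (KO1 and KO15) and Tet1 MUT cells (CM59 and CM69), in which genome editing by CRISPR HDR left a catalytically dead TET1. On day 3 there were also WT cells that had received 3 µM CHIR99021 (CHIR), a GSK3β inhibitor that activates Wnt signalling, from day 2 on (lines WT7 and WT34), and KO cells that had received 5 µM of the Wnt inhibitor XAV939 (XAV) over the same day (KO1 and KO15). The MUT lines are clones of the line WT7. The CHIR libraries are from other lines than the untreated WT libraries, and no library had vehicle alone, so that treatment, line and vehicle cannot be told apart in that comparison. The KO lines of the day 2, day 3 and XAV groups are the same. Per the study's methods KO lines were derived from blastocysts and mock-transfected clones were kept beside the MUT clones, and the labels do not say whether WT70 and WT72 are such clones, so that genotype and the origin of the line cannot be told apart in KO against WT.

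Guidance cues steer growing axons and migrating cells. Ephrins are held in the membrane and bind Eph receptor tyrosine kinases on neighbouring cells, and both partners can signal, which keeps cell populations apart in the early embryo. Class 3 semaphorins are secreted and act through neuropilins and plexins, while Slits repel cells through Robo receptors and netrin 1 attracts or repels through Dcc and Unc5 receptors. During gastrulation and neural patterning the same families mark tissue boundaries and migratory mesoderm.

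The sequences below are 300 bases around the strongest summit of the 4 regions with the largest gain and the 4 with the largest loss of fold enrichment in KO against WT cells on day 3, because the main comparison turns on them. They were read from the mouse genome mm10 (RefSeq GRCm38.p6), plus strand, 5′ to 3′. Capitals mark the matches, on either strand, to one of the short motifs CTTTGAT or CTTTGAA (TCF/LEF), GGAATGT (TEAD), GGTGTGA (T-box), TGTTTAC (forkhead) and ACAATGG (SOX), of which no pair overlapped here. The 4 gained regions come first.
Sema3e, 65.5 kb upstream, chr5:13959672-13959971: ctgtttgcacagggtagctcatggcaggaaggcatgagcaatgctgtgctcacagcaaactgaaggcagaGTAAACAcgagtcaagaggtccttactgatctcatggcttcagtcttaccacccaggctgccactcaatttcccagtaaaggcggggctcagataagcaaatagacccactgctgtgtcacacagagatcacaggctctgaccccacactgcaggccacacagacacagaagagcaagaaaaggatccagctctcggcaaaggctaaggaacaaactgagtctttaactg
Efnb2, 62.9 kb downstream, chr8:8576364-8576663: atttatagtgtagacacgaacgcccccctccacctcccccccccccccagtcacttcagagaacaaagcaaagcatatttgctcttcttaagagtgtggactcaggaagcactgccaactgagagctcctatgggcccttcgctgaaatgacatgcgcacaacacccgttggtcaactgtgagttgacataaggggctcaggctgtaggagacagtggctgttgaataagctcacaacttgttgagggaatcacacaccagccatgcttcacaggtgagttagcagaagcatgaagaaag
Epha4, 45.3 kb upstream of an internal start, chr1:77422725-77423024: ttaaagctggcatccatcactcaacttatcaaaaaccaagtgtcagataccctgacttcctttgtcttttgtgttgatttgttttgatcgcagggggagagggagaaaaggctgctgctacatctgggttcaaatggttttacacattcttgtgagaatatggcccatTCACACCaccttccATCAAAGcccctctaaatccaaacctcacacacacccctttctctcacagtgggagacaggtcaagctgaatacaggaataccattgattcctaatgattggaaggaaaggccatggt
Plxna2, 8.1 kb downstream, chr1:194627734-194628033: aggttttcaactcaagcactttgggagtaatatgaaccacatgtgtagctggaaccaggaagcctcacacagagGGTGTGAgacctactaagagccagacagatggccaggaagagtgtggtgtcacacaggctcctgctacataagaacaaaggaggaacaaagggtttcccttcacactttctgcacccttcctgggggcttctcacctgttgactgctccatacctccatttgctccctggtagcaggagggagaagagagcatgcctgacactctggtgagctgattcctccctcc
The 4 regions below lost fold enrichment.
Ntn1, 31.8 kb downstream, chr11:68354829-68355128: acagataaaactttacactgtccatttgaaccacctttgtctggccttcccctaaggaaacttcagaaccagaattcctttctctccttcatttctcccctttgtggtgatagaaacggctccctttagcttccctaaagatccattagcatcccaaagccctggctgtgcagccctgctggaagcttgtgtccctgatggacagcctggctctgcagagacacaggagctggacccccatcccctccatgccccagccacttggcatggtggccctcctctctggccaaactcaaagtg
Epha4, 17.3 kb upstream, chr1:77532239-77532538: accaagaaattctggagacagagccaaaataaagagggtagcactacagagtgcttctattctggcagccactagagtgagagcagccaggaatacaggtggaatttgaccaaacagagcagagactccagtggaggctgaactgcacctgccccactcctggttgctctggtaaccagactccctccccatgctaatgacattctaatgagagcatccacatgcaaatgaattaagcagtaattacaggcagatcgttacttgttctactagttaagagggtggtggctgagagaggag
Plxna1, 66.1 kb downstream, chr6:89291504-89291803: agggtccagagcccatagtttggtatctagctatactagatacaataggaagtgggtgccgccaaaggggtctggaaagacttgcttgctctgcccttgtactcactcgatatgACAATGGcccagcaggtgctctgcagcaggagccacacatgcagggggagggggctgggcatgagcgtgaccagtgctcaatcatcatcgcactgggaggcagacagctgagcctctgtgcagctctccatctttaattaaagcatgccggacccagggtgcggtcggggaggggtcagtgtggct
Efnb2, 66.9 kb downstream, chr8:8572329-8572628: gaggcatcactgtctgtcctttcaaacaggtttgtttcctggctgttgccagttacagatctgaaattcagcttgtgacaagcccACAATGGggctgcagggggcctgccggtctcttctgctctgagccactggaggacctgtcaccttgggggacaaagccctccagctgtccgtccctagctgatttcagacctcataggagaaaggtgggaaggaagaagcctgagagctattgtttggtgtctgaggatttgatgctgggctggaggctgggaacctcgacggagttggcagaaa

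Among the gained sequences, the Epha4 one held a T-box match at base 169 and a TCF/LEF match at base 183, the Plxna2 one a T-box match at base 75 and the Sema3e one a forkhead match at base 71, counted from the 5′ end. Among the lost ones, Plxna1 held a SOX match at base 115 and Efnb2 one at base 86. Over 300-base windows at all 80565 regions, 5.81% held the T-box letters, 10.9% a TCF/LEF form, 5.68% the TEAD, 3.82% the forkhead and 4.12% the SOX letters, and the shares over the 325 guidance regions were 8.31%, 12.9%, 5.85%, 5.54% and 5.85%. A match is a description of the letters and not evidence of a bound factor, and the absence of one says only that these letters are not in this window.

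The guidance regions lay mostly away from starts. Only 98 of 325 (30.2%) were within 3 kb of a TSS, against 34.6% of the 69079 regions that had a TSS within 100 kb, and their median distance was 14365 bp against 9621 bp. By position of the median summit, 153 regions were intronic, 141 intergenic, 21 in untranslated parts of exons and 10 in other exonic sequence. Each of the 41 genes had a region within 3 kb, and 36 had one there that was open in every library, where open means that a kept interval of the library overlaps the region by at least 1 bp. Regions open in all 16 libraries made up 87 of 325 guidance regions (26.8%) and 36.9% of all regions with a TSS in the window. The median GC content of the windows was 55.0% for guidance regions and 53.3% for all regions. At the edge of the 100 kb limit, the farthest regions inside were near Ephb3 (98615 bp), Slit3 (99167 bp) and Slit2 (99469 bp), and the nearest outside were near Ntn1 (100857 bp), Plxna2 (102703 bp) and Ephb1 (104792 bp).

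Guidance intervals per library numbered 170 to 222 (median 184.5) of the 50000 kept. Over the 325 regions the open share was 59.4% ± 0.424 in WT cells on day 3 (SD, n = 2 lines, here and below), 61.7% ± 4.10 in MUT, 60% ± 0.424 in KO, 63.1% ± 0.424 in CHIR-treated WT and 58.8% ± 0.424 in XAV-treated KO cells. The CHIR libraries were above both WT libraries, while the KO and WT libraries met at 59.7%. Over all 80565 regions the order was another, at 61.6% ± 0.283 in CHIR and 63.7% ± 0.636 in WT cells. Slits and Robos, the repulsive cue and receptor pair, had 42 regions, of which 50.0% were open in each WT library on day 3, 57.1% in each KO library, 64.3% and 71.4% in the CHIR libraries and 47.6% and 42.9% in the XAV libraries. The MUT libraries, at 47.6% and 57.1%, spanned the WT and KO values. For the 58 ephrin regions the share was 60.4% ± 2.48 in WT, 68.1% ± 1.27 in KO, 69.0% ± 2.48 in CHIR and 56.0% ± 3.68 in XAV cells, and for the 94 Eph receptor regions it was 67% ± 2.97 in WT and 60.1% ± 0.707 in KO cells. Some of the 325 regions, among Slits and Robos and among ephrins too, were kept only with the help of the CHIR or the KO libraries of day 3. They are open in that group by construction, which raises its share, so the higher CHIR and KO shares are a description. These shares carry no test, because 2 libraries against 2 are too few for an exact permutation test to pass the threshold. In a bulk library, fewer cells of a kind and less open chromatin per cell cannot be told apart.

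**Figure D1:**
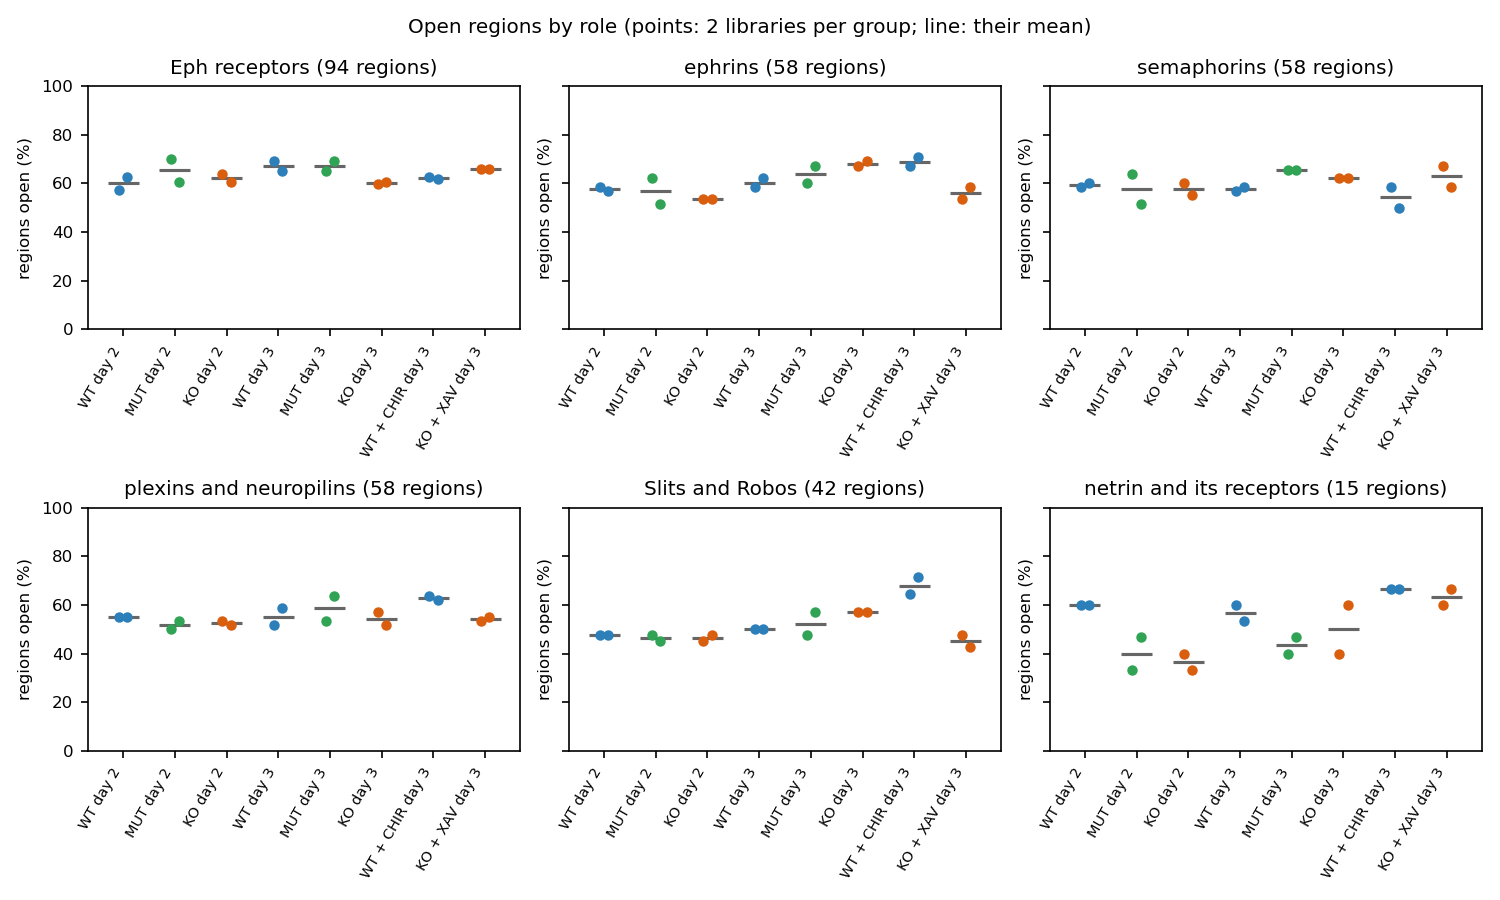
Percent of regions open (vertical axis) in each of the 16 libraries by group (horizontal axis), 1 panel per class of guidance gene, with points for libraries and lines for the mean of the 2 lines. The Slit and Robo panel shows both CHIR libraries (64.3% and 71.4%) above both WT libraries of day 3 (50.0% each), where some regions were kept only through the CHIR libraries.

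The values compared next are fold enrichments, the signal at a peak summit over the local background as deposited. Each region took the highest value among a library's deposited peak entries with their summit inside the region. Where no summit lay inside, the overlapping entry with its summit nearest to the region's centre was used. A floor of 1 was set where a library had no entry. No entry does not mean no signal, since the files list only peaks with −log10 p of at least 2. Differences are between group means of log2 fold enrichment, from a limma fit of all 16 libraries, quantile normalized. The p-values were adjusted by Benjamini and Hochberg over all 80565 regions, and regions were called at an adjusted p under 0.05. Single values and means ± SD are given as deposited, before log2 and normalization. A fold is taken from the log2 difference of the fit, so it can differ from the ratio of the printed means. By open state, a region was gained when the first group had it open in 2 of 2 libraries and the second group in 0 of 2, and lost when this was turned round. The comparisons of KO, MUT and CHIR with WT on day 3 share the same 2 WT libraries. A region that was open in fewer than 2 libraries outside the group in which it is higher was kept only with the help of that group, so its values are a description and support nothing. Read depth is unknown, because the files hold no counts. The lowest −log10 p kept ranged from 6.84 to 21.8 between libraries and the share of regions without an entry from 5.20% to 12.2%. As a check of the labels, a region 3036 bp inside Tet1 (chr10:62884128-62884462) was open in 0 of 6 KO libraries and in 10 of 10 others.

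In KO against WT cells on day 3, 7 of 325 guidance regions had higher fold enrichment (2.15%, against 2.18% of all regions) and 7 had lower (2.15%, against 2.37%), shares close to the background. By open state 18 were gained (5.54%, against 3.92% of all regions) and 11 were lost (3.38%, against 4.22%). Some of the gained regions, at Efnb2, Sema3f and Slit1, were open in fewer than 2 libraries outside the KO group of day 3. They were kept only with its help, so the share gained is a description. Of the regions called by limma, 1 of the 7 higher and 2 of the 7 lower were open in fewer than 2 libraries outside the higher group, as were 22.6% and 8.54% of all regions so called. None of the 14 called regions was within 3 kb of a TSS, where 6.73% of all higher and 12.6% of all lower regions lay, and 7 of the 14 were in introns and 7 intergenic. Among the 11 lost by open state 2 lay at starts, 7 bp upstream at Dcc, with 4.01 and 4.02 in KO against 5.54 and 4.91 in WT libraries (adjusted p = 0.688), and 0.9 kb upstream at Ephb4, with 2.92 and 2.60 against 3.97 and 3.50 (adjusted p = 0.396). The median log2 difference over all guidance regions was 0.04, against 0.02 over all regions. The gains by open state included 6 of 42 Slit and Robo regions (14.3%), namely 3 at Slit1, 2 at Robo1 and 1 at Slit3, none of which was called by limma.

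**Figure D2:**
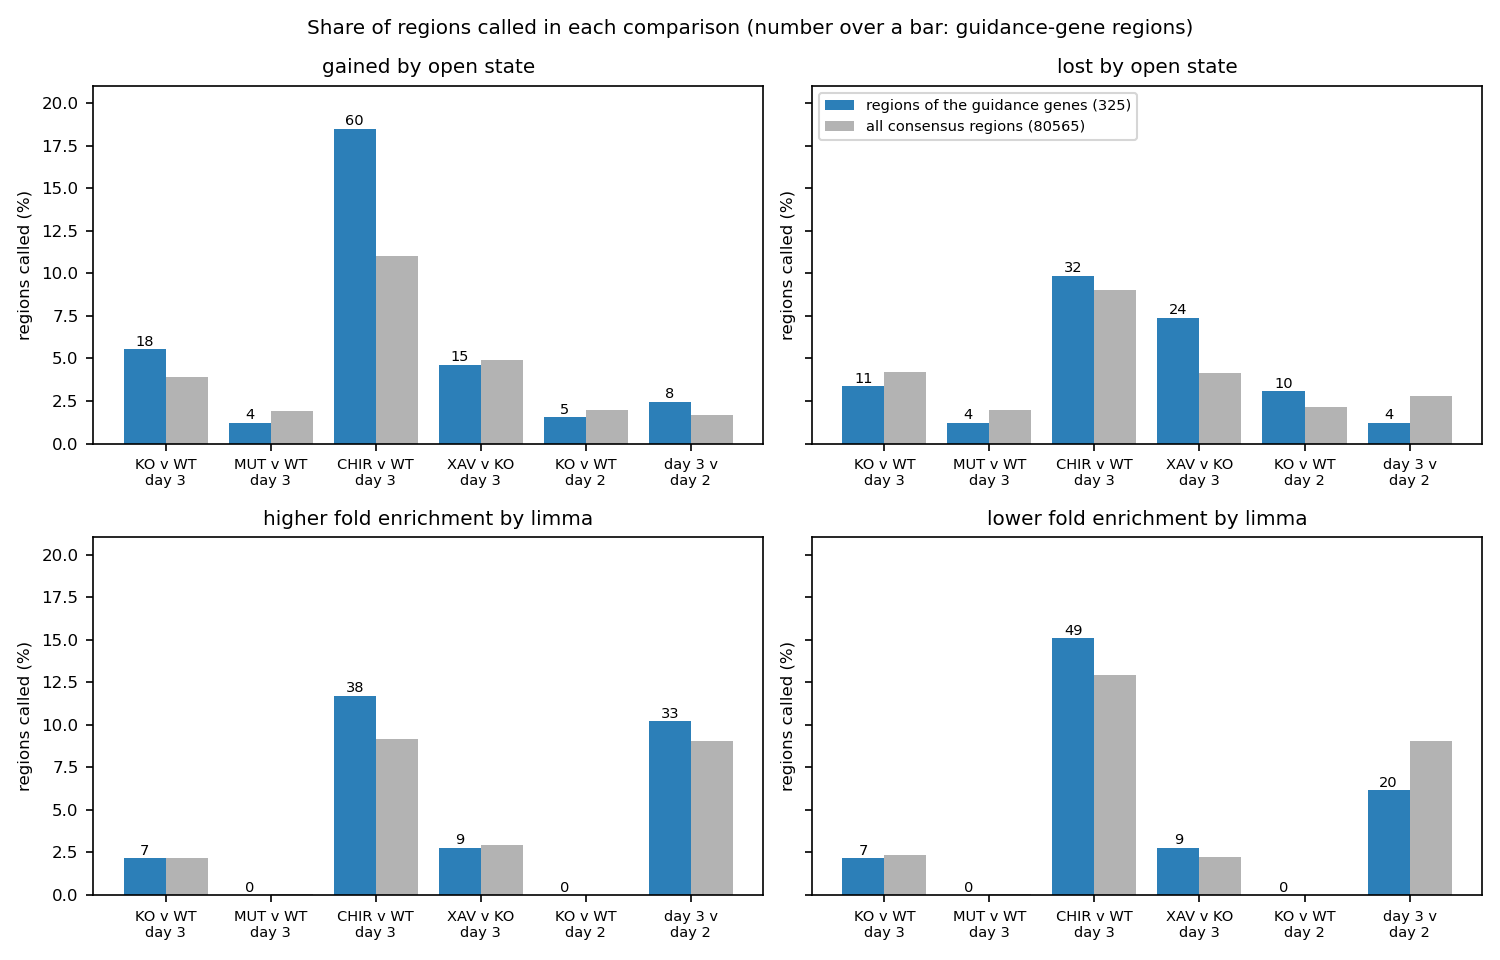
Percent of regions called (vertical axis) among the 325 guidance regions and among all 80565 regions, by comparison and direction, by open state and by limma. KO against WT on day 3 gives 5.54% against 3.92% gained and 2.15% against 2.18% with higher fold enrichment. Some regions were kept only with the help of the group in which they are open or higher.

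The largest difference was 65.5 kb upstream of Sema3e, which encodes a secreted semaphorin that binds plexin D1 (chr5:13959659-13959991, intergenic; the first sequence printed above). Its fold enrichment was 17.1 and 5.04 in the KO libraries on day 3, 3.40 and 2.74 in MUT, 17.4 and 18.4 in CHIR-treated WT and 3.04 and 2.75 in XAV-treated KO cells, and neither WT library had an entry. Both KO libraries were above all MUT and XAV libraries, but the 2 KO lines were far apart. The difference from WT was 3.39 on the log2 scale (SE 0.571, adjusted p = 0.00393 by limma). For this region and the next 5, where the whole WT group had no entry, the size of the difference depends on the floor of 1, so that no fold is given. The SE and adjusted p of these regions depend on it too.

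At Efnb2, which encodes the transmembrane ligand ephrin B2, a region 62.9 kb downstream (chr8:8576341-8576663, intergenic) had values of 10.3 and 6.34 in the KO libraries on day 3. No WT, MUT or XAV library had an entry on day 3, and the CHIR libraries had 3.18 and 3.99. The region was open in the 2 KO libraries of day 3 alone and was kept only through them, so the log2 difference of 3.16 from WT is a description. About 4 kb farther out, the region 66.9 kb downstream of Efnb2 (chr8:8572301-8572638) was open in all 16 libraries and lower in KO, at 5.11 ± 0.403 against 11.7 ± 2.75 in WT cells, 10.1 ± 2.45 in MUT, 6.81 ± 0.28 in CHIR and 14.3 ± 0.357 in XAV. This loss was 2.04-fold (log2 −1.03, SE 0.212, adjusted p = 0.0151), with the KO libraries below all WT and MUT libraries.

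Epha4, a receptor for ephrins of both the A and the B type, had 17 regions, of which 1 was higher and 2 were lower in KO cells. In an Epha4 intron, the region 45.3 kb upstream of an internal start (chr1:77422514-77423040) had values of 10.8 and 5.76 in KO libraries, 9.0 and 9.43 in CHIR, 2.72 in MUT line CM59 with no entry in CM69, 2.43 and 3.98 in XAV and no entry in either WT library (log2 difference 3.14, SE 0.505, adjusted p = 0.00285). The intergenic region 17.3 kb upstream of Epha4 (chr1:77532215-77532560) went the other way, at 2.75 ± 0.696 in KO against 10.0 ± 1.47 in WT, a 4.81-fold difference (log2 −2.27, SE 0.565, adjusted p = 0.042). XAV-treated KO cells had 14.0 and 9.17 there, as high as WT, and the MUT libraries had 5.44 and 4.27, between both groups. A second intronic region, 63.1 kb upstream of the internal start (chr1:77440506-77440855), had 3.70 ± 0.812 in KO and 6.79 ± 0.193 in WT cells (log2 −0.77, SE 0.191, adjusted p = 0.0405).

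Ephb2 and Ephb3, receptors of the B class that binds transmembrane ephrins, each had a higher region in KO cells. The intronic Ephb2 region 48.8 kb downstream of its TSS (chr4:136786910-136787230) had 5.52 and 2.84 in the KO libraries on day 3, 6.98 and 7.43 with CHIR, and no entry in the other 12 libraries (log2 difference 2.12, SE 0.177, adjusted p = 1.36e-05). It was open in the CHIR libraries alone. The Ephb3 region 69.8 kb downstream (chr16:21281987-21282533, intergenic) had an entry in every library, with 7.75 ± 1.73 in KO against 3.89 ± 0.205 in WT cells, 2.16-fold (log2 1.11, SE 0.189, adjusted p = 0.00423).

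Receptors of the semaphorins and Slits gave 2 higher regions. Plexin A2, a co-receptor with neuropilins, had an intronic region 8.1 kb downstream of the Plxna2 start (chr1:194627697-194628036) with values of 6.08 and 4.53 in KO and 6.92 and 8.45 in CHIR libraries, and no entry in any WT, MUT or XAV library of day 3 (log2 difference 2.55, SE 0.393, adjusted p = 0.0021). Robo2, a receptor for Slits, had an intergenic region 40.3 kb upstream (chr16:74451642-74451963) with 5.80 and 4.32 in KO, 8.45 and 10.1 in CHIR and no entry in the other 12 libraries (log2 difference 2.48, SE 0.143, adjusted p = 1.08e-06). The latter was open in the CHIR libraries alone, since its entries in KO were below the kept 50000.

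Lower regions were found at Ntn1, Plxna1 and Nrp2. Within Ntn1, which encodes netrin 1, the intronic region 31.8 kb downstream (chr11:68354828-68355160) had 8.65 and 4.33 in WT libraries and no entry in either KO library, while XAV-treated KO cells had 5.17 and 7.65 (log2 −2.55, SE 0.626, adjusted p = 0.0394). Plxna1, which encodes plexin A1, had 2 lower regions, one 66.1 kb downstream (chr6:89291503-89291816) with 3.39 and 4.85 in WT, 2.64 and no entry in KO (log2 −1.82, SE 0.303, adjusted p = 0.00358), and one intronic at 12.6 kb (chr6:89344943-89345334) at 6.51 ± 1.7 in KO against 11.0 ± 2.07 in WT (1.54-fold lower, log2 −0.62, SE 0.128, adjusted p = 0.0146). Nrp2, which encodes neuropilin 2, had an intronic region 49.4 kb downstream (chr1:62752927-62753280) at 4.37 ± 1.1 in KO, 9.45 ± 0.639 in WT and 5.38 ± 0.0852 in XAV cells, 1.97-fold lower in KO (log2 −0.98, SE 0.161, adjusted p = 0.00325). The Ntn1 region and the Plxna1 region at 66.1 kb were each open in 1 WT library of day 3 and in 1 library outside that group, so their differences are a description. KO and WT libraries did not overlap at any of these 4 regions, and at the Nrp2 region the XAV libraries stayed below WT.

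Several calls depended on 1 library. Without the WT library WT70, 2 regions rather than 7 were lower, without WT72 4 and without KO1 17, and without KO15 14 rather than 7 were higher. The Ntn1 region and the Epha4 region 63.1 kb upstream lost their call without any one of the 4 libraries (adjusted p up to 0.218 and 0.193), the Epha4 region 17.3 kb upstream without WT70, WT72 or KO1 (up to 0.207), the Efnb2 region 66.9 kb downstream without WT70 or KO1 (up to 0.116) and the Plxna1 region at 12.6 kb without WT70 or KO15 (up to 0.121), whereas the 7 higher regions kept theirs.

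**Figure D3:**
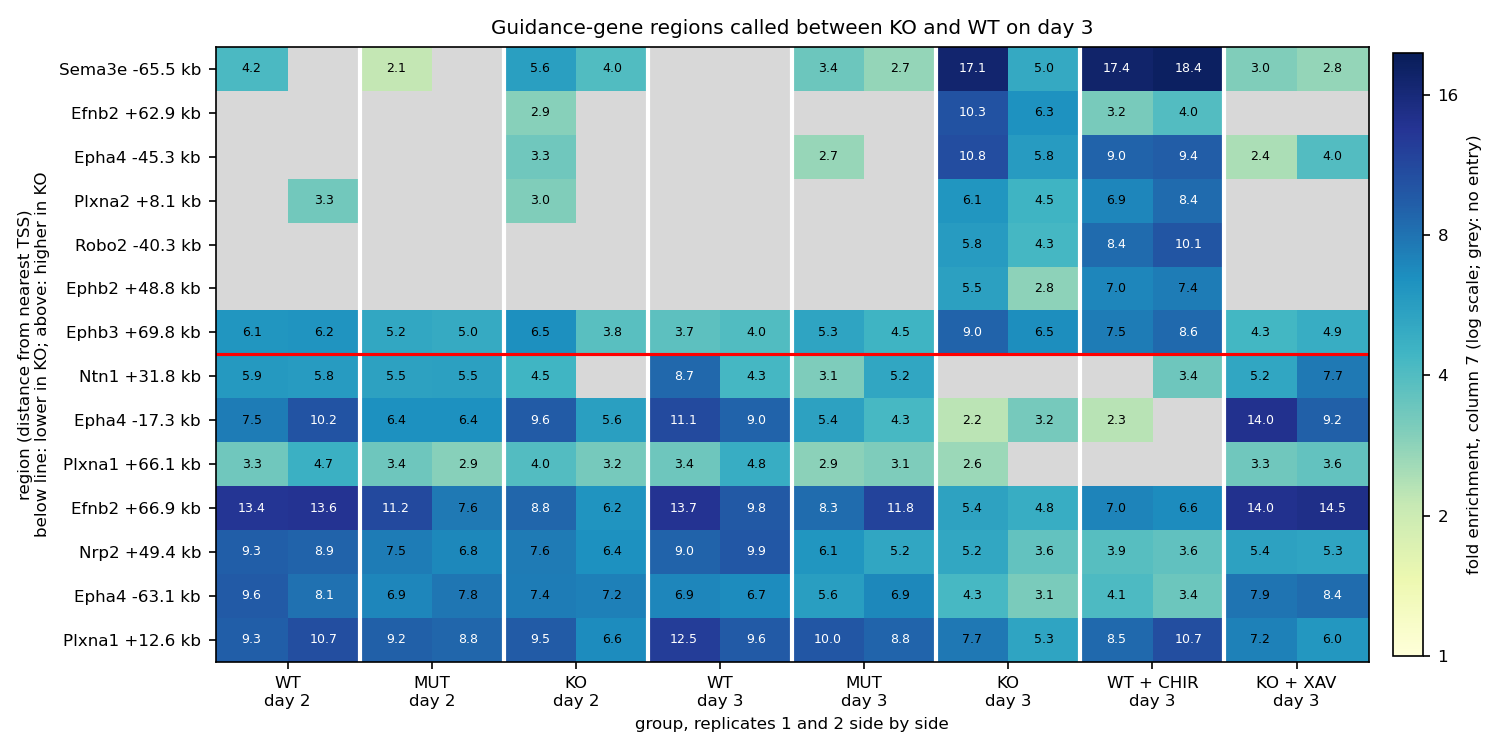
Heat map of fold enrichment (colour on a log scale, value in each cell) at the 14 guidance regions called in KO against WT cells on day 3 (rows, the 7 above the red line higher in KO and the 7 below it lower) in all 16 libraries (columns, the 2 lines of a group side by side), with grey cells where a library had no entry. In 6 of the 7 upper rows both WT cells of day 3 are grey, and in the Efnb2 row at 66.9 kb both KO values (5.4 and 4.83) are below both WT values (13.7 and 9.79).

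Markers of the primitive streak moved with the same libraries. Of 87 regions near 8 streak genes, 61 and 58 were open in the KO libraries on day 3 and 60 and 58 in the CHIR libraries, against 42 in each WT library, 47 and 41 in MUT and 42 in each XAV library. By limma 9 of them were higher and 1 lower in KO against WT (10.3% and 1.15%), 23 and 10 with CHIR, and 2 and 9 with XAV against KO. Of 53 regions near 6 neuroectoderm genes, 30 and 31 were open in KO and 29 and 28 in CHIR libraries, against 39 and 37 in WT and 39 and 42 in XAV. Limma called 1 of these higher and 0 lower in KO, 0 and 7 with CHIR, and 3 and 0 with XAV. Of 68 epiblast regions, 47 and 51 were open in KO, 52 and 48 in WT and 37 and 33 in CHIR libraries, with 2 higher and 2 lower by limma in KO and 1 and 12 with CHIR. Of 36 regions near trophoblast genes, 31 and 24 were open in KO, 27 and 30 in CHIR, 28 and 25 in MUT, 23 and 24 in XAV and 22 and 23 in WT libraries on day 3, and 3 were higher and 0 lower by limma in KO and 7 and 3 with CHIR. Eomes is on both the streak and the trophoblast list, so their counts share regions and are not separate results. Of 25 regions near genes listed for extraembryonic endoderm (Gata4, Gata6, Sox7 and Sox17), 21 and 17 were open in KO, 19 and 20 in CHIR, 14 and 18 in MUT, 16 and 15 in XAV and 16 and 17 in WT libraries. By limma 2 were higher, at 1 gene, and 0 lower in KO, and 5 and 1 with CHIR. The paper uses Gata4 and Sox17 as markers of mesoderm and endoderm, so this list is not particular to extraembryonic cells. At the trophoblast and endoderm lists the KO and CHIR libraries were above both WT libraries, or equal to the higher one in 1 KO library of the endoderm list. Of 42 regions near fibroblast genes, 26 were open in each KO library, 29 and 33 in WT and 28 and 30 in CHIR libraries. The part of cell composition in the guidance results was not tested.

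The question whether the loss of TET1 protein and the loss of its catalysis act alike is addressed by the MUT cells. No guidance region passed the test in MUT against WT cells on day 3 in either direction, where limma called 0.0832% of all regions higher and 0.0695% lower. At an unadjusted p under 0.05 there were 16 guidance regions (4.92%, against 5.93% of all regions), and the smallest adjusted p was 0.199. By open state 4 guidance regions were gained (1.23%, against 1.89%) and 4 were lost (1.23%, against 1.94%). Among the gained ones, the region 18.4 kb upstream of Sema6d, a transmembrane semaphorin (chr2:124071413-124071738), had 7.13 and 6.10 in MUT libraries against 4.00 in WT72 and no entry in WT70, with an adjusted p of 0.766. The Plxna1 region 1.2 kb downstream of its start had 3.84 and 3.66 against 3.37 and 2.67, and the Sema6d region at 51.5 kb had 7.38 and 5.92 against 6.23 and 4.33, each with an adjusted p of 1.0, so these differences were within the spread of the fit.

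Of the regions lost by open state in MUT cells, the Epha4 region 17.3 kb upstream had 5.44 and 4.27 against 11.1 and 9.0 in WT (adjusted p = 0.924). An Epha5 region 39.1 kb upstream had 3.74 and 4.57 against 7.27 and 5.67 (adjusted p = 1.0), and a Sema6d region at 11.1 kb had 5.44 and 5.18 against 9.0 and 7.67 (adjusted p = 0.811). The MUT libraries were below both WT libraries at each of the 3, without a call. Without MUT line CM69, 3 regions were lower in MUT, and without WT70 1 was.

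KO was also set directly against MUT on day 3, a contrast added after the values were seen. Here 9 guidance regions were higher in KO (2.77%, against 1.50% of all regions) and 1 was lower (0.308%, against 1.55%). The higher regions included 5 of those named above, at Epha4 (45.3 kb upstream, log2 difference 2.52, adjusted p = 0.0168), Plxna2 (2.55, adjusted p = 0.00259), Ephb2 (2.12, adjusted p = 1.39e-05), Robo2 (2.48, adjusted p = 1.05e-06) and Efnb2 (3.16, kept through the KO libraries only), and the lower one was the Plxna1 region at 66.1 kb (−1.29, adjusted p = 0.042). Neither MUT library of day 3 had an entry at the Plxna2, Ephb2, Robo2 and Efnb2 regions. There the size, the SE and the adjusted p depend on the floor of 1. The Ephb2 and Robo2 regions were open in the CHIR libraries alone and kept only through them, so their differences are a description. The Plxna1 region was open in no KO or MUT library. At the Sema3e region the difference from MUT was 1.98 (adjusted p = 0.107).

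On day 2 no guidance region passed the test in KO against WT cells, where limma called 0.0199% of all regions higher and 0.0236% lower. At an unadjusted p under 0.05 there were 21 guidance regions (6.46%, against 4.88%), with a smallest adjusted p of 0.193. By open state 5 were gained (1.54%, against 1.97%) and 10 were lost (3.08%, against 2.17%), and the lost ones included 1 region each at Ntn1, Dcc and Unc5c, 3 of the 15 regions of the netrin system. The largest gained differences were all at Eph receptors and small, with 8.90 and 6.19 against 6.15 and 6.12 at Epha5 (30.0 kb downstream), 6.72 and 5.24 against 4.79 and 5.02 at Ephb2 (21.1 kb) and 5.11 and 3.33 against 3.64 and 3.92 at Ephb1 (0.8 kb), each with an adjusted p of 1.0. The largest lost ones were at Epha4 (1.5 kb downstream), with 2.69 and no entry in KO against 3.97 and 4.61 in WT (adjusted p = 0.581), at Ephb2 (15.7 kb), with 3.65 and no entry against 5.59 and 5.93 (adjusted p = 0.682), and at an Epha4 intron (22.3 kb upstream of an internal start), with 7.35 and 4.02 against 10.3 and 10.2 (adjusted p = 1.0). KO and WT libraries did not overlap at these 3.

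Whether the effect of KO differed between the days was tested as an interaction, also added after the values were seen. It was larger on day 3 at 5 guidance regions (1.54%, against 1.02% of all regions) and smaller at 0 (against 0.478%). All 5 are named above. The difference of the KO effects was 2.77 on the log2 scale at Plxna2 (adjusted p = 0.0283), 2.70 at Efnb2 (62.9 kb), 2.45 at Robo2 (adjusted p = 6.06e-05), 2.09 at Ephb2 (adjusted p = 0.00065) and 1.33 at Ephb3 (adjusted p = 0.0281). The Efnb2 region was kept only through the KO libraries of day 3 and the Robo2 and Ephb2 regions only through the CHIR libraries of day 3. None of the 3 was open in a library of day 2, so their values do not bear independently on a change with the day. On day 2 the Robo2 and Ephb2 regions had no entry in any library, and at Ephb3 the WT libraries had 6.14 and 6.18 and the KO libraries 6.45 and 3.84, while the WT libraries of day 3 had 3.74 and 4.03.

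The CHIR-treated cells differed from untreated WT cells at more guidance regions than the groups of any other comparison made here. In CHIR-treated against untreated WT cells on day 3, 38 of 325 regions were higher (11.7%, against 9.18% of all regions) and 49 were lower (15.1%, against 12.9%). By open state 60 were gained (18.5%, against 11.0%) and 32 lost (9.85%, against 9.02%). Of the 38 higher regions 30 were open in fewer than 2 libraries outside the CHIR group, as were 72% of all higher regions, while 2 of the 49 lower ones were open in fewer than 2 libraries outside the WT group of day 3. With regions open in at least 3 libraries alone, 13 were higher and 31 lower. Gains by open state carry the same limit. The line is confounded with the treatment here, as said above. Most lay away from gene starts, as 3 of 38 higher (7.89%, against 9.04% of all regions so called) and 4 of 49 lower regions (8.16%, against 9.56%) lay within 3 kb of a TSS, shares near the background.

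Counts by class were as follows, with no test between classes. Ephrins had 10 higher and 6 lower regions of 58, plexins and neuropilins 12 and 9 of 58, Eph receptors 8 and 12 of 94, Slits and Robos 3 and 5 of 42, and the netrin system 1 and 0 of 15. Semaphorins had 4 higher and 17 lower regions of 58, but 7 gained and 5 lost by open state. At single genes, Efnb1, which encodes ephrin B1, had 6 higher regions of 12 and 1 lower, and all 12 of its regions were open in both CHIR libraries against 5 to 8 in the other 14 libraries, where 5 of the 6 higher ones were open in fewer than 2 libraries outside CHIR. Nrp2 had 5 higher and 3 lower regions of 17 and Plxna2 had 4 higher and 0 lower of 7. Most of the higher regions at these genes were also open in fewer than 2 libraries outside CHIR. Sema3e had 1 higher and 8 lower of 13, Sema6a, a transmembrane semaphorin, 1 and 6 of 14, and Epha4 2 and 5 of 17. Slits and Robos gained 13 of 42 regions by open state (31%), several of which were kept only with the help of the CHIR libraries, so this share is a description.

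**Figure D4:**
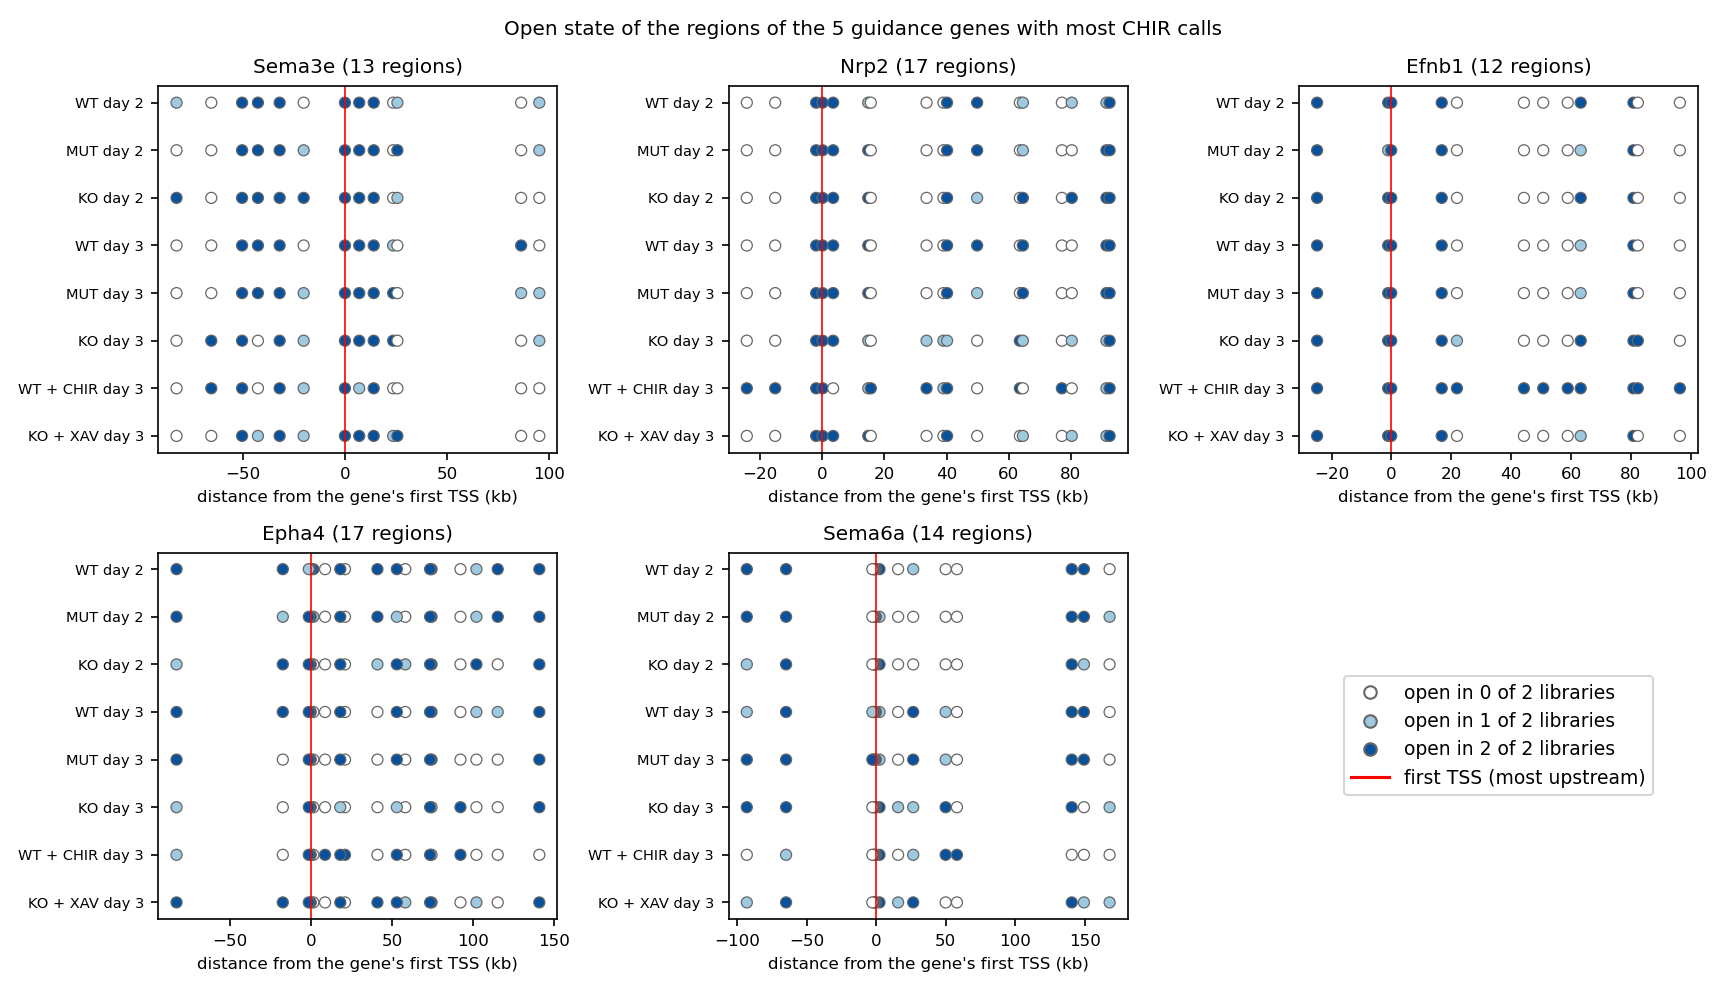
Open state of every region of Sema3e, Nrp2, Efnb1, Epha4 and Sema6a, the 5 guidance genes with most calls in CHIR-treated against untreated WT cells, by distance from the first TSS of the gene in kb (horizontal axis, red line at the TSS) in the 8 groups (vertical axis). A white circle means no library of the group had the region open, a light one that 1 had and a dark one that both had, and all 12 Efnb1 regions are dark in the CHIR row.

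Several CHIR regions had an entry in no other group. The Sema3e region 65.5 kb upstream gave the largest difference (log2 4.17, SE 0.571, adjusted p = 0.00016), with the values given above, and it was also open in both KO libraries of day 3. At Robo2, 52.9 kb upstream (chr16:74464298-74464611), the CHIR libraries had 13.5 and 15.2 (log2 3.83), at Robo1, in an intron 31 kb downstream (chr16:72693983-72694296), 10.2 and 12.3 (log2 3.47), and at Sema6d, 15.6 kb downstream (chr2:124669046-124669351), 10.7 and 10.4 (log2 3.38). No other library of the 14 had an entry at these 3 regions, which were kept only through the CHIR libraries, so that their differences are a description. The Efnb1 region 21.9 kb downstream (chrX:99157871-99158196) had 9.67 and 9.73 with CHIR and 6.09 in KO1 on day 3 and no entry elsewhere (log2 3.27), and the Robo2 region 40.3 kb upstream differed by 3.20. Both were open in fewer than 2 libraries outside the CHIR group. In all, 25 of the 38 higher and 12 of the 49 lower regions had no entry in either library of one group.

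Of the 49 lower regions 4 lay within 3 kb of a TSS, at Sema3a, Ephb3, Sema6a and Slit1. At Sema3a, which encodes a repellent secreted semaphorin, the region 0.2 kb downstream of its start (chr5:13396812-13397159, in the untranslated part of an exon) had no entry in either CHIR library against 6.57 and 3.51 in WT (log2 −2.20, SE 0.251, adjusted p = 3.46e-05), and it had entries in all other 14 libraries. Another Sema3a region, at an internal start 2.7 kb from the first TSS, was open in both CHIR libraries, with 8.15 and 8.42 against 7.11 and 7.61 in WT (adjusted p = 0.715). At the Slit1 start the values were 2.98 and 3.69 with CHIR against 7.57 and 6.56 in WT (log2 −0.96, adjusted p = 0.0039), and the Ephb3 and Sema6a regions differed by −1.70 (adjusted p = 0.0275) and −1.23 (adjusted p = 0.0118). Other lower regions were at Epha4 (17.3 kb upstream, −2.57, adjusted p = 0.0054) and Nrp2 (64.1 kb downstream, −2.38, adjusted p = 0.000151). Lower too were regions at Sema6a (80.2 kb downstream, in an intron of Commd10, −2.38, adjusted p = 0.00017) and Ephb3 (42.0 kb downstream, −2.26, adjusted p = 2.29e-05). The Sema3e region 86.3 kb downstream (−2.68) was open in 1 library outside the WT group of day 3, so its difference is a description. Without the CHIR line WT34 the Sema3e region at 86.3 kb and the Epha4 region lost their call (adjusted p = 0.0532 and 0.0577), and without WT70 32 regions rather than 49 were lower.

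**Figure D5:**
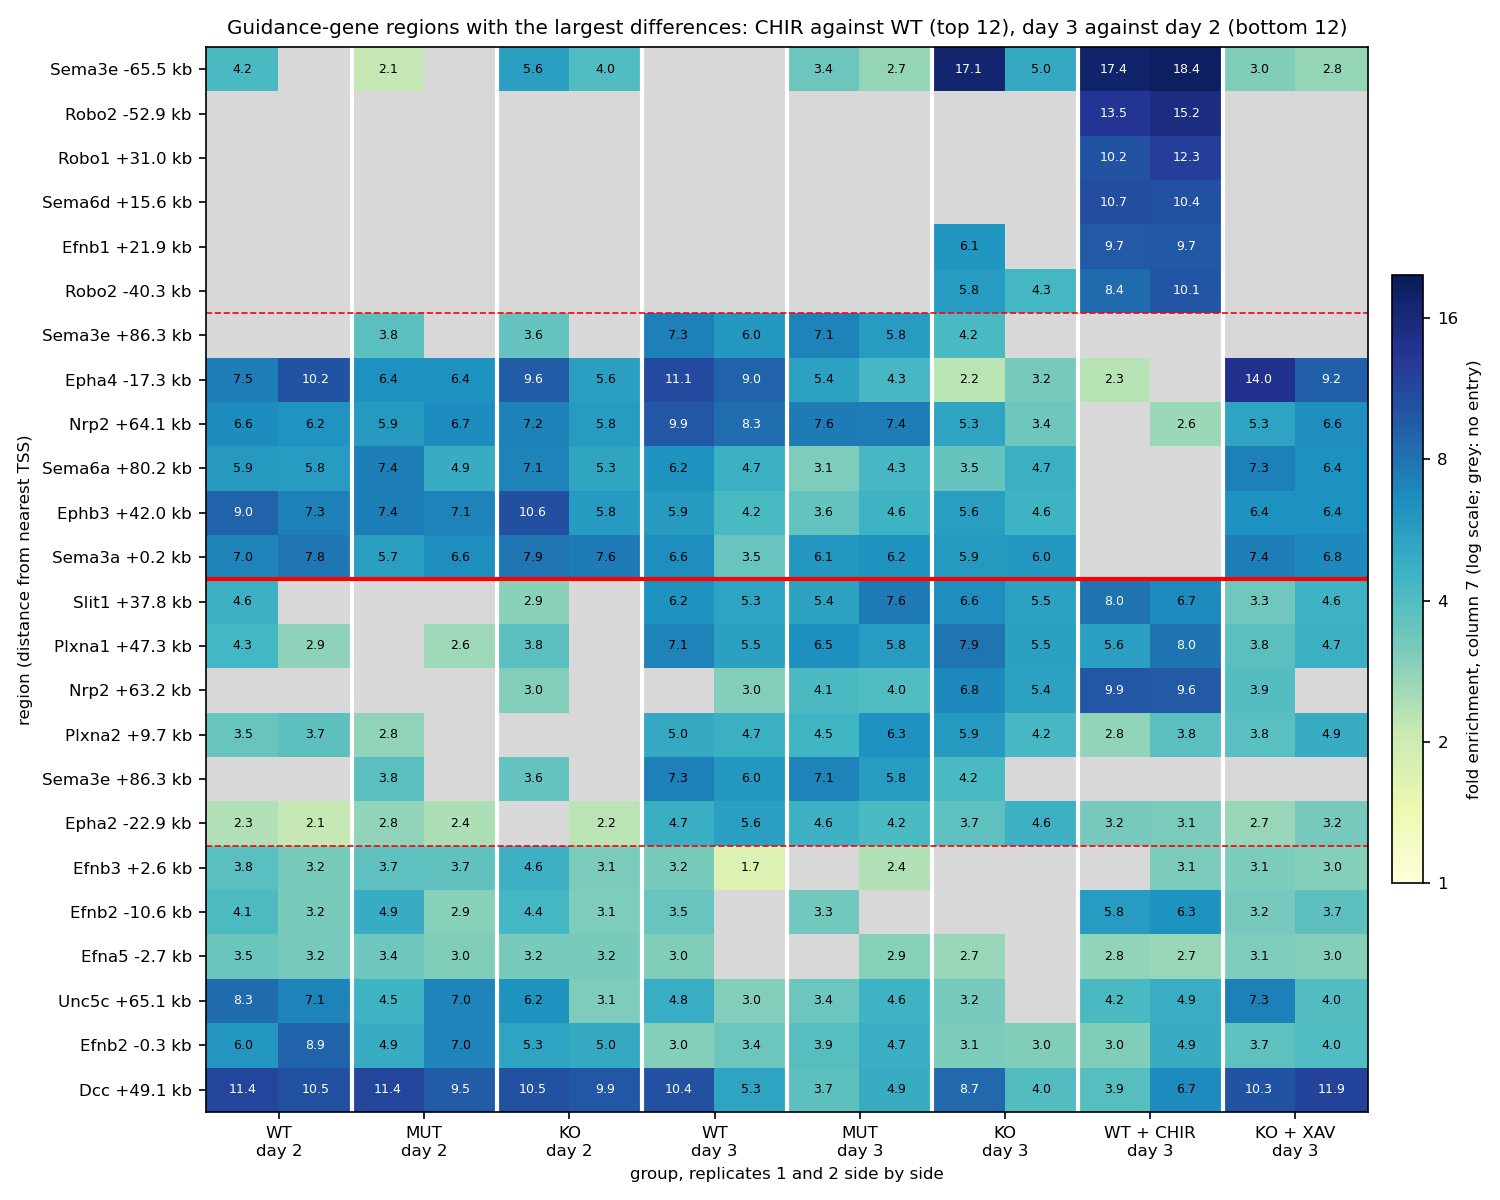
Heat map of fold enrichment (colour on a log scale, value in each cell) in all 16 libraries (columns, the 2 lines of a group side by side) at the 12 guidance regions named for CHIR-treated WT against WT (rows above the solid red line) and the 12 named for day 3 against day 2 (below it), the dashed lines parting higher from lower regions and grey cells marking no entry. The Robo2 region 52.9 kb upstream, kept only through the CHIR libraries, has entries in their columns alone (13.5 and 15.2).

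CHIR-treated WT cells were also set against untreated KO cells of day 3, a contrast added after the values were seen, since both differ from WT. It called 34 guidance regions higher with CHIR (10.5%, against 6.95% of all regions) and 31 lower (9.54%, against 8.51%). Most of the 34 were open in fewer than 2 libraries outside the CHIR group. They were kept only with its help, so the share of higher regions is a description. Of the 14 regions named for KO, 2 were higher with CHIR, at Robo2 (0.72) and Ephb2 (0.73), and 1 was lower, at Efnb2 62.9 kb downstream (−1.21). The first 2 were kept only through the CHIR libraries and the latter only through the KO libraries, so these 3 are a description. At the other 11 the difference was not called, with 0.78 at Sema3e (SE 0.571, adjusted p = 0.438) and 0.06 at the Epha4 region 45.3 kb upstream (adjusted p = 0.975), and a missed call does not show that the values are alike.

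The Wnt inhibitor was tested in KO cells. In XAV-treated against untreated KO cells on day 3, 9 guidance regions were higher (2.77%, against 2.92% of all regions) and 9 were lower (2.77%, against 2.21%). Open in fewer than 2 libraries outside the higher group were 1 higher and 1 lower region, as were 4.97% and 21% of all regions so called. Of the 9 higher regions 2, and of the 9 lower regions 7, had no entry in either library of one group. By open state 15 were gained (4.62%, against 4.89%) and 24 were lost (7.38%, against 4.17%). Some of the lost regions, such as those at Efnb2, were kept only with the help of the untreated KO libraries, so the share lost is a description. This comparison shares its KO libraries with KO against WT, so that the values of each are given side by side and their likeness is not counted as a result. By class, 6 of the 24 lost regions were at Slits and Robos (14.3% of 42), 5 each at Eph receptors and ephrins, and 4 each at semaphorins and at plexins and neuropilins.

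Lower with XAV were the Efnb2 region 62.9 kb downstream (log2 −3.16, kept only through the untreated KO libraries), the Plxna2 region at 8.1 kb (−2.55, SE 0.393, adjusted p = 0.00205) and the Robo2 region 40.3 kb upstream (−2.48, SE 0.143, adjusted p = 1.08e-06), each with no entry in either XAV library against the KO values above. That Robo2 region was open in the CHIR libraries alone and kept only through them, so its difference is a description. The Efnb1 region 82.3 kb downstream (chrX:99218229-99218569) had 7.25 and 4.68 in KO, 7.19 and 7.62 in CHIR and no entry in either XAV library (−2.69, SE 0.549, adjusted p = 0.0136). The Sema3e region 65.5 kb upstream (−2.22, adjusted p = 0.045) and an Ephb4 intronic region at 24.2 kb (−2.17, adjusted p = 0.0487) were also lower, the latter with 3.89 and 4.23 in KO and no entry with XAV.

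Higher with XAV were the Epha4 region 17.3 kb upstream (log2 2.38, SE 0.565, adjusted p = 0.0307) and the Plxna1 region at 66.1 kb (1.50, SE 0.303, adjusted p = 0.0132). So were the Efnb2 region at 66.9 kb (1.27, SE 0.212, adjusted p = 0.00363) and a Robo2 region 43.0 kb downstream (1.01, adjusted p = 0.0458). The Plxna1 region at 66.1 kb was open in no KO library, with or without XAV. The Ntn1 region at 31.8 kb (2.49) was open in 1 XAV library and in 1 library outside that group, so its difference is a description. The Ephb3 region 0.1 kb downstream of an internal start, 7.8 kb from the first TSS (chr16:21212363-21212689), had 4.51 and 5.33 with XAV, 4.80 and 2.64 in WT and no entry in either KO library (2.13, SE 0.496, adjusted p = 0.0278). The region at the first Ephb3 start was open in all 16 libraries, with 9.99 and 9.73 in KO against 10.2 and 8.64 in WT. For the Plxna1 region at 12.6 kb and the Nrp2 region at 49.4 kb, lower in KO than in WT, XAV gave differences of −0.20 (adjusted p = 0.466) and 0.08 (adjusted p = 0.833) from KO. Single libraries weighed heavily here. Without the XAV library of KO1 1 region rather than 9 was higher and 5 were lower, without that of KO15 2 were higher, and without the untreated KO15 library 6 were higher. The Ntn1, Ephb3, Efnb1 and Ephb4 regions lost their call without any one of the 4 libraries (adjusted p up to 0.225), the Epha4 and Sema3e regions without untreated KO1 or either XAV library (up to 0.22), the Plxna1 region without either XAV library (up to 0.0967) and the Robo2 region 43.0 kb downstream without either untreated KO library or the XAV library of KO1 (up to 0.328).

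Between day 2 and day 3 of untreated cells, with 6 libraries a day over WT, MUT and KO, 33 guidance regions were higher on day 3 (10.2%, against 9.03% of all regions) and 20 were lower (6.15%, against 9.03%). Of these, 8 and 5 were open in fewer than 2 libraries outside the day on which they were higher, as were 25.2% and 39.8% of all regions so called. By open state, here open in at least 5 of 6 libraries of one day and at most 1 of 6 of the other, 8 were gained (2.46%, against 1.70%) and 4 were lost (1.23%, against 2.78%). The median log2 difference was 0.06 for guidance regions and 0.03 for all regions. Eph receptors had 5 higher and 4 lower regions, ephrins 7 and 4, semaphorins 7 and 3, plexins and neuropilins 7 and 3, Slits and Robos 5 and 3 and the netrin system 2 and 3.

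The largest rise was in an intron of Slit1, which encodes a repellent of axons (37.8 kb downstream, chr19:41705463-41705824), from 4.61 in WT70, 2.89 in KO1 and no entry in the other 4 libraries of day 2 to values of 5.33 to 7.57 in all 6 libraries of day 3 (log2 2.18, SE 0.307, adjusted p = 0.000744). The 2 days did not overlap there. At Plxna1 (47.3 kb downstream) the values rose from at most 4.35 on day 2 to 5.49 to 7.86 on day 3 (1.76, SE 0.291, adjusted p = 0.00198), again without overlap. At Epha2, a receptor of ephrin A ligands (22.9 kb upstream), they were at most 2.78 on day 2 and 3.71 to 5.59 on day 3 (1.49). Plxna2 at 9.7 kb had at most 3.74 on day 2 and 4.25 to 6.33 on day 3 (1.66). The Nrp2 region at 63.2 kb (1.73, adjusted p = 0.00567) and the Sema3e region at 86.3 kb (1.60) were higher too, but each had a library of day 3 without an entry. The Epha2, Plxna2 and Sema3e regions were open in fewer than 2 libraries outside the untreated ones of day 3, so their differences are a description.

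Lower on day 3 were 3 ephrin B regions, of which the Efnb3 one (2.6 kb downstream) fell by 1.20 on the log2 scale and the Efnb2 ones 10.6 kb and 0.3 kb upstream of an internal start by 1.15 (adjusted p = 0.0378) and 0.80. The Efnb3 region, that Efnb2 region at 0.3 kb and an Efna5 region 2.7 kb upstream (−1.01) were open in libraries of day 2 alone, so their differences are a description. An Unc5c intron region at 65.1 kb (−0.90) and a Dcc intron region at 49.1 kb (−0.78, adjusted p = 0.00838) were lower as well, the latter 2 encoding netrin receptors. The Unc5c region was open in 1 library outside untreated day 2, so its difference is a description too. Of these 6, the Efnb2, Efna5 and Unc5c regions lost their call without at least 5 of the 12 libraries in turn. Leaving out WT70, CM59 or CM69 of day 2, or WT72 or CM59 of day 3, left 19 to 20 higher regions rather than 33, and leaving out WT70 or CM69 of day 2, or WT72 or CM59 of day 3, left 10 to 13 lower regions rather than 20.

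Other guidance genes and the machinery inside the cell, taken from lists and not from their values, are given for comparison. Near 38 other guidance ligands and receptors with 236 regions, 7 were higher and 9 lower in KO against WT on day 3 (2.97% and 3.81%, against 2.18% and 2.37% of all regions), 26 and 23 with CHIR (11% and 9.75%, against 9.18% and 12.9%), 13 and 7 with XAV (5.51% and 2.97%, against 2.92% and 2.21%) and 22 and 13 on day 3 against day 2 (9.32% and 5.51%, against 9.03% each). Near 19 effectors with 188 regions, the counts were 2 and 5 (1.06% and 2.66%), 21 and 28 (11.2% and 14.9%), 7 and 5 (3.72% and 2.66%), and 20 and 12 (10.6% and 6.38%) in the same order. Neither list had a called region in MUT against WT or in KO against WT on day 2.

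In the called guidance regions the T-box letters were found in 4 of 7 regions higher in KO (57.1%) and 0 of 7 lower ones, where all KO-higher regions had them in 18.6% and all KO-lower ones in 4.24%. With CHIR they were in 12 of 38 higher (31.6%) and 3 of 49 lower guidance regions (6.12%), against 16% and 4.33% of all regions called. A TCF/LEF form was in 10 of 38 CHIR-higher guidance regions (26.3%) and 8 of 49 lower ones (16.3%), against 27.8% and 9.30% of all regions called. With CHIR the SOX letters were in 1 of 38 and 8 of 49 (16.3%), against 3.34% and 8.26% of all regions called. The TEAD letters were in 0 of 38 and 7 of 49 (14.3%), against 4.73% and 11.4%. The forkhead letters were in 1 of 38 and 6 of 49 (12.2%), against 4.82% and 5.12%. In KO a TCF/LEF form was in 2 of 7 higher and 0 of 7 lower guidance regions, against 24.4% and 9.69% of all regions called. These counts are descriptions without a test.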

How the data were processed

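Accessibility was measured by omni-ATAC-seq. Per the study's methods the authors ran the ENCODE ATAC-seq pipeline, with alignment to mm10 per the labels, and deposited 1 peak list per library with fold enrichment (a ratio of signal over local background), −log10 p-value and −log10 q-value for each summit. The second library of each day 2 group carries "merged" in its deposited name, and no source used here says what was merged. The submitters' processing notes also name DiffBind 3.0.15, HOMER 2 and deepTools 3.4.3. The deposited lists of differential regions hold the authors' own KO against WT comparison and were not used.

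From these files, regions were built and annotated with GENCODE M21 in Python 3.11.15 (pandas 2.3.3, numpy 2.4.6, matplotlib 3.10.9), with kept intervals taken by −log10 p. Log2 fold enrichment was compared with limma 3.58.1 in R 4.3.3 (quantile normalization, 8 group means, trended empirical Bayes, Benjamini-Hochberg adjustment), which was tested on simulated data. Quantile normalization can move a value at the floor by about 0.08 (log2). The 41 genes, the lists and the tests were chosen with earlier results of these data known. Regions were named by size of the log2 difference among those called, at most 10 per direction in KO against WT on day 3 and 6 per direction elsewhere, or, where none was called, the 3 gained and 3 lost by open state with the largest difference. A single library's value is given for the largest ones. Contrasts between KO and MUT, between CHIR and KO, and between the days' KO effects, and a fit that leaves missing entries out, were added after the data were seen.

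Cell lines recur between groups (WT, MUT and KO lines on both days, KO lines with and without XAV), so the same-line libraries were checked for shared deviations from their group means. The correlations were 0.0812 for WT, 0.00738 for MUT, 0.173 for KO and 0.0174 for KO with XAV. The comparisons within day 3 of WT, MUT and CHIR use different lines. The genome sequence was checked against RefSeq promoter windows, of which 2000 of 2000 were identical. P-values rest on a spread between lines that is shared over the 8 groups and, by empirical Bayes, over regions. They do not measure the spread of the compared lines alone. At the Robo2 region 40.3 kb upstream and the Ephb2 region 48.8 kb downstream, 12 libraries hold the floor of 1. There the SE and the p-value depend on the floor too.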

Additional observations from a re-analysis of the deposited data

Results flagged for a closer look

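At 5 guidance regions the effect of KO against WT was larger on day 3 than on day 2, by the interaction term of the limma fit. The log2 difference of the 2 effects was 2.765 at the Plxna2 region 8.1 kb downstream, 2.695 at the Efnb2 region 62.9 kb downstream, 2.45 at the Robo2 region 40.3 kb upstream, 2.091 at the Ephb2 region 48.8 kb downstream and 1.332 at the Ephb3 region 69.8 kb downstream, with adjusted p-values of 0.0283, 0.000671, 6.06e-05, 0.00065 and 0.0281. The Efnb2 region was kept only through the KO libraries of day 3, and the Robo2 and Ephb2 regions only through the CHIR libraries of day 3, with none of the 3 open in a library of day 2, so their values do not bear independently on a change with the day. At the first 4 regions the WT libraries of day 3 had no entry, so the size and the adjusted p depend on the floor of 1. On day 3 both KO libraries were above both WT libraries at all 5 regions. Primitive streak regions were open more often in the same KO libraries of day 3, as given above, and their part in these values was not tested.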

How the results depend on the processing

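Counts by open state depended on how many intervals were kept. With 30000 intervals per library, CHIR gained 39 guidance regions, MUT gained 1, day 3 gained 2 over day 2, KO lost 4 on day 2 and XAV lost 14. With every interval of −log10 q of at least 2, gained and lost were 28 and 17 for CHIR, 6 and 5 for KO on day 3, 0 and 4 for KO on day 2, 0 and 2 for MUT, 1 and 1 between the days and 6 and 9 for XAV. Asking for the summit inside the region left 3 gained in KO on day 2, and a TSS window of 50 kb left 11 gained in KO on day 3. Leaving out 1 library gave 26 to 30 gained and 21 to 26 lost for KO on day 3, 9 to 13 and 13 to 22 for KO on day 2, 10 to 19 and 8 to 14 for MUT, 64 to 67 and 43 to 50 for CHIR, 23 to 30 and 29 to 36 for XAV and 8 to 11 and 4 to 8 between the days. A group of 1 library is open more easily than a group of 2, which raises these counts by construction. For fold enrichment, leaving out 1 library gave 8 to 14 higher and 2 to 17 lower for KO on day 3, 0 to 0 in both directions on day 2, 0 to 0 and 0 to 3 for MUT, 31 to 38 and 32 to 41 for CHIR, 1 to 13 and 5 to 13 for XAV and 19 to 33 and 10 to 24 between the days, where a lone library was assumed to vary like the other groups. With regions open in at least 3 libraries CHIR gave 13 higher and 31 lower, and without normalization day 3 gave 12 higher than day 2.

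With the cell line as a replicate block (consensus correlation 0.0858) no call of a named region changed, and the counts moved most for XAV, from 9 to 13 higher. With missing entries left out of the fit, 1 of the 7 higher and 5 of the 7 lower KO calls remained, 11 of 38 and 33 of 49 for CHIR, 6 of 9 and 2 of 9 for XAV and 14 of 33 and 16 of 20 between the days, since a group without an entry then has no value. The Plxna1 region at 66.1 kb then had an adjusted p of 0.264. Without normalization 11 calls of named regions missed the threshold, namely 4 in KO at Ephb3 (0.0682), Ntn1 (0.0906) and Plxna1 (0.129 and 0.127), 5 with XAV at Sema3e (0.228), Plxna1 (0.174), Robo2 43.0 kb downstream (0.0727), Ntn1 (0.0689) and Ephb3 (0.0609), and 2 between the days at Efna5 (0.113) and Unc5c (0.0842). No value of a named region changed sign. Over all alternatives, 521 values of named regions kept their side of the threshold and 86 lost it. Depth is unknown here, and groups of 2 limit what can be called.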
